A study of Rattus norvegicus with 32 samples.

Results

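The mammary gland of the F1(CopXF344) hybrid rat was set against that of the ACI rat. The comparison took in 10 of the 32 arrays of the series, namely the 5 arrays labelled as the F1(CopXF344) hybrid, written F1 below, and the 5 labelled ACI. The other arrays held 5 samples each of the inbred strains Cop, F344, BUF/N and WF, which enter below only as levels set beside those of F1 and ACI, and 2 pools, which were not used. The samples were total RNA from normal mammary gland, and the labels record no treatment, age, sex, reproductive stage, batch or number of animals per sample, so the spread between arrays of a group may be technical and the p-values measure that spread alone.

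F1 animals of an inbred cross carry one set of chromosomes from each parent strain, here Cop and F344. Cop is known for its resistance to chemically induced mammary carcinoma, and F344 is a susceptible strain. ACI was itself bred from a cross that included Copenhagen stock, and ACI females are known for the mammary tumours that form under sustained oestrogen. The mammary gland is a layered tissue in which epithelial ducts, made of luminal and myoepithelial cells, lie in a bed of fat and connective tissue with vessels, nerve and immune cells, and dissected gland may carry strips of the skeletal muscle beneath it. The luminal cells make milk proteins, and the fat cells and the luminal cells both make fatty acids.

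Each array gave a signal, which is the linear brightness of a probe set after scaling by the authors, for 8799 probe sets, and 4494 of these were bright enough in the 10 arrays to be tested. Median signals ran from 65.8 to 76.8 on the F1 arrays and from 77.4 to 102.1 on the ACI arrays, and the share of probe sets at or below the floor of 18.3 set on low signals ran from 25.4% to 29.3% in F1 and from 18.1% to 26.3% in ACI. F1 2 and F1 3 stood apart from the other F1 arrays, with correlations of 0.834 to 0.883 with them and 0.961 with each other. Among the ACI arrays, ACI 2 and ACI 5 stood apart in the same way, with correlations of 0.875 to 0.917 with the other ACI arrays and 0.95 with each other. The ratio of 3′ to 5′ actin probe sets, a measure of RNA integrity, overlapped between the groups, at 1.27 to 1.98 in F1 and 1.19 to 1.80 in ACI. Within ACI it was 1.78 and 1.80 on ACI 2 and ACI 5 and 1.19 to 1.34 on the other 3 arrays, and the median signals of ACI 2 and ACI 5, at 102.1 and 101.8, were above the 77.4 to 81.2 of those 3. The part of RNA integrity and of these medians in the calls was not tested. Results are therefore given with all 10 arrays and also without these 4 arrays. Tested luminal keratins, caseins and fat cell genes were above the floor on all 10 arrays. Genes were tested only if bright in at least 5 of these arrays, so this is no check of the labelled tissue.

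A probe set was called when its adjusted p, from limma with Benjamini-Hochberg adjustment over all 4494 tested probe sets, was below 0.05, and differences are given as log2 of F1 over ACI with their standard errors (SE, n = 5 arrays per group). By this rule 426 probe sets (9.48%) were called, 221 higher in F1 (4.92%) and 205 lower in F1 (4.56%). Over all 4494 tested probe sets, 2063 differences were positive and 2431 negative. These shares are the base for the counts of list members called or on a side below. The 333 called probe sets with a single gene symbol covered 302 of the 2765 genes tested. Differences beyond 2-fold were found for 71 of the calls that were higher in F1 and for 129 of those that were lower. The signals of the 5 F1 and the 5 ACI arrays did not overlap for 512 probe sets (11.4%), with F1 higher in 266 (5.92%) and lower in 246 (5.47%), and 339 of the calls were among them. Without F1 2, F1 3, ACI 2 and ACI 5, 284 probe sets were called, 132 higher (2.94%) and 152 lower (3.38%), and 181 of the 426 were among them. Leaving out ACI 2 and ACI 5 alone left 81 calls, 37 higher (0.823%) and 44 lower (0.979%). All 426 kept the sign of their difference in both of these fits.

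The scale of the differences depended on how bright a probe set was. Among the 142 tested probe sets with a mean signal of at least 4000, 85.9% were higher in F1, with a median log2 difference of 0.50, and 63 were called higher against 1 lower. Among the 1802 with a mean signal below 200, 34.4% were higher in F1, the median was -0.21, and 27 were called higher against 84 lower. Quantile normalization between the arrays, which gives every array the same distribution of signals, brought these medians to 0.02 in both classes and left 271 calls, 154 higher (3.43%) and 117 lower (2.60%). Centring each array on its median log2 signal instead moved the median difference of all tested probe sets to 0.26 from -0.05 and gave 585 calls higher (13%) and 89 lower (1.98%), so counts by direction depend on the scale. The value after quantile normalization is given below for the bright gene groups in particular.

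**Figure D1:**
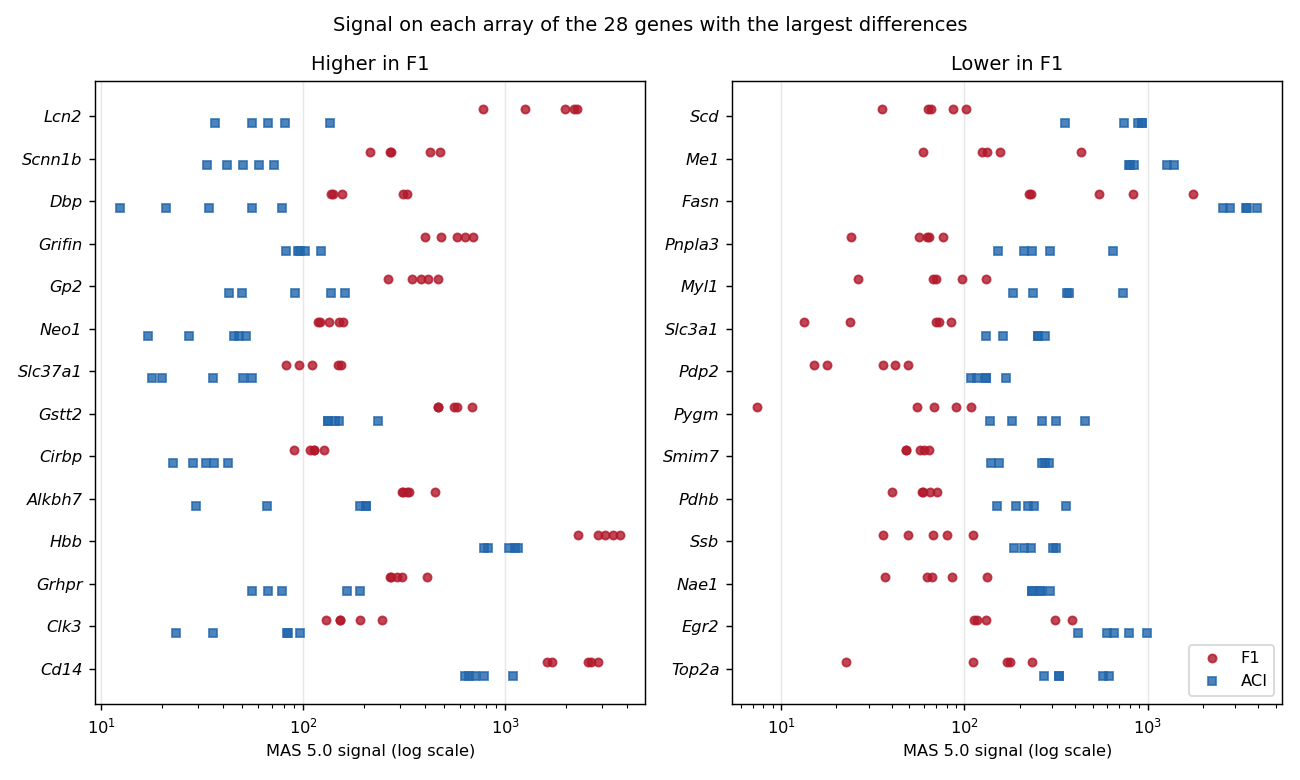
Signal of the 14 genes with the largest difference in each direction among called genes whose groups did not overlap, on a log axis. Red circles are the 5 F1 arrays and blue squares the 5 ACI arrays. In the left panel every F1 array lies to the right of every ACI array of the same gene, and in the right panel to its left, as the rule for choosing these genes requires.

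Lcn2, which encodes lipocalin 2, an iron-scavenging protein secreted by epithelium and neutrophils, had the largest difference. Its signals were 1252, 1982, 2271, 776 and 2190.2 in F1, against 67.1, 81.1, 36.7, 55.5 and 136 in ACI. The lowest F1 array, at 776, lay above the highest ACI array, at 136, and the group means were 1694 ± 652 in F1 and 75.2 ± 37.4 in ACI (SD, n = 5 each). The log2 difference was 4.52 (SE 0.36, adjusted p = 3.2e-05), or 23-fold. The hybrid's level lay close to that of its Cop parent, at 1616, while the F344 parent, at 72.3, lay close to ACI. None of the other neutrophil markers was bright enough to be tested, so the list of neutrophil genes gives no reading beside it. The 250 bases upstream of the RefSeq start of Lcn2, at chr3:36081781-36082030 on the minus strand of GRCr8, are shown because this was the largest difference and the gene is a textbook target of NF-kappaB. The capitals mark GGGAA, with which some kappaB sites begin, at position -243 from the start, and its reverse complement TTCCC at -219. A whole kappaB site was not searched for. These letters are common, as 56.1% of 33469 rat promoters of this length held them on either strand.
Lcn2: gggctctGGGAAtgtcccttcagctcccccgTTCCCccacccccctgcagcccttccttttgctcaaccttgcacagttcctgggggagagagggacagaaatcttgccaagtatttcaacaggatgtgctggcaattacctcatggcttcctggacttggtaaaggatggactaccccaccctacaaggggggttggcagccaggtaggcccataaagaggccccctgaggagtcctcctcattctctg
The match describes the reference genome, not the genomes of these strains.

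Membrane proteins were among the other large differences upward. Scnn1b, a subunit of the epithelial sodium channel, had 268, 478, 272, 214 and 423 in F1 and 71.9, 42.2, 60.4, 50.3 and 33.3 in ACI (log2 difference 2.66, SE 0.28, adjusted p = 0.00043). Gp2, a membrane glycoprotein of secretory granules, had 345, 465, 263, 413 and 382 in F1 and 49.7, 137, 91.6, 43.0 and 162 in ACI (log2 difference 2.12, SE 0.35, adjusted p = 0.0047). Both genes were also higher in F1 than the mean of either parent, at 331 in F1 against 57.5 in Cop and 123 in F344 for Scnn1b, and at 374 in F1 against 135 in Cop and 60.6 in F344 for Gp2. Slc37a1, a sugar phosphate transporter, had 95.6, 149, 154, 82.0 and 110 in F1 and 55.9, 17.9, 50.3, 35.8 and 20.1 in ACI. Its log2 difference of 1.81 (adjusted p = 0.014) was 1.03 without the 4 arrays (adjusted p = 0.056). Neo1, the receptor neogenin, had 134, 119, 158, 149.9 and 121 in F1 and 27.2, 17.0, 48.0, 52.1 and 45.2 in ACI (log2 difference 1.93, SE 0.33, adjusted p = 0.0053), with F1 again above both parents, at 25.7 in Cop and 37.1 in F344.

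Grifin, a lens protein of the galectin family, had 401, 632, 483, 578 and 689.6 in F1 and 102, 123, 95.9, 82.2 and 94.4 in ACI (log2 difference 2.47, SE 0.20, adjusted p = 3.2e-05). The hybrid lay between its parents, at 557 in F1 against 146 in Cop and 1145 in F344. Gstt2, a theta class glutathione transferase, had 467, 689, 577, 463 and 555 in F1 and 151, 132, 144, 132 and 235 in ACI (log2 difference 1.81, SE 0.20, adjusted p = 0.00049). A second probe set annotated to Gstt2 had a log2 difference of 0.11 and was not called. Cirbp, a cold-inducible RNA-binding protein, had 114, 127, 109, 113 and 90.5 in F1 and 28.6, 32.9, 36.0, 42.4 and 22.6 in ACI (log2 difference 1.79, SE 0.29, adjusted p = 0.0038), a difference of 1.58 without the 4 arrays (adjusted p = 0.017). Grhpr, which reduces glyoxylate, had 307, 291, 409.7, 269 and 273 in F1 and 55.9, 67.0, 191, 164 and 78.6 in ACI (log2 difference 1.64, adjusted p = 0.011), and its adjusted p was 0.095 without the 4 arrays.

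The calls for Alkbh7, a mitochondrial dioxygenase, and Clk3, a kinase of splicing factors, depended on single arrays. Alkbh7 had 326, 451, 335, 312 and 308 in F1 and 206, 66.1, 191, 205 and 29.6 in ACI, where ACI 2 and ACI 5 were the low arrays (log2 difference 1.65, adjusted p = 0.046). The call held without ACI 1, ACI 3 or ACI 4 but not without any other single array (adjusted p 0.054 to 0.11). Without the 4 arrays its log2 difference was 0.66 (adjusted p = 0.039). Clk3 had 152, 247, 192, 129 and 152 in F1 and 84.3, 23.4, 96.4, 83.3 and 35.6 in ACI, again lowest on ACI 2 and ACI 5 (log2 difference 1.59, adjusted p = 0.027). The call was lost without F1 1, F1 2, F1 3, ACI 2 or ACI 5 (adjusted p 0.051 to 0.061). Without the 4 arrays its log2 difference was 0.71 (adjusted p = 0.055).

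Beta globin was higher in F1 than in ACI, and red cells are its main source. Hbb had 3713, 2882, 2291, 3114 and 3408 in F1 and 1045, 1112, 1161, 824 and 785 in ACI (log2 difference 1.64, SE 0.18, adjusted p = 0.00049). The Hbb mean was 3081 in F1, 3058 in Cop, 4355 in F344, 1989 in BUF/N and 3043.5 in WF, against 985 in ACI. For Hbb it was thus ACI that stood apart, and F1 was not above both parents. The related Hbb-b1 had 1453, 1010.4, 949, 1203 and 1195 in F1 and 697, 886, 823, 610.4 and 735 in ACI (log2 difference 0.63, adjusted p = 0.039), and signals of near-identical globin copies cannot be kept apart by such probe sets. Of the 4 red cell markers tested, these 2 rose and the other 2 did not pass the test, with Alas2, the haem synthesis enzyme of red cells, at 0.72 and the anion exchanger Slc4a1 at -0.58. The call for Hbb-b1 held without F1 3 or F1 5 but not without any other single array (adjusted p 0.055 to 0.092). The summed signal of the 4 ran from 3605 to 5595 in F1 and from 1726 to 2406 in ACI. In bulk tissue a difference in the number of cells of a type and a difference in RNA per cell cannot be told apart, here and in the groups that follow.

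Enzymes that make fatty acids were among the genes with the largest differences downward. Fasn, the fatty acid synthase, had 540.5, 226, 230, 831 and 1769 in F1, against 3427, 2829.8, 2577, 3504 and 3971 in ACI. Every F1 array was below every ACI array, and F1 2 and F1 3 were lowest (log2 difference -2.61, SE 0.47, adjusted p = 0.0064). Scd, the stearoyl-CoA desaturase that makes monounsaturated fatty acids, had 65.3, 35.4, 102, 63.4 and 87.1 in F1 and 354, 882, 747, 929 and 928 in ACI on the dimmer of its probe sets (log2 difference -3.45, SE 0.33, adjusted p = 0.00014). On the brighter one it had 3464, 2247, 5790.5, 2824 and 3994 in F1 and 7383, 6663, 7089.7, 6983 and 7081 in ACI, a smaller log2 difference of -1.02 (SE 0.22, adjusted p = 0.015). The ratio therefore differed between probe sets of the gene while the direction was the same. Me1, malic enzyme, which supplies NADPH for fatty acid synthesis, had 125, 59.6, 133, 157 and 431 in F1 and 841, 799.5, 794, 1391 and 1268 in ACI (log2 difference -2.76, SE 0.41, adjusted p = 0.0029). All 4 tested probe sets of Me1 were called lower, with log2 differences of -1.47, -1.78, -2.28 and -2.76. Pnpla3, a lipid droplet protein, had 24.1, 76.1, 62.8, 56.4 and 64.0 in F1 and 212, 232, 152, 294 and 646 in ACI (log2 difference -2.35, SE 0.40, adjusted p = 0.0051).

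Of the 11 genes of fatty acid synthesis and desaturation tested, 5 fell in F1 (Fasn, Me1, Scd, Acaca and Slc25a1), none rose, and the median log2 difference was -0.65, against -0.05 over all tested probe sets. Acaca, acetyl-CoA carboxylase, which commits carbon to fatty acids, had 43.1, 50.9, 106, 66.1 and 125 in F1 and 204, 147, 182, 252 and 192 in ACI (log2 difference -1.42, SE 0.31, adjusted p = 0.015). Slc25a1, the carrier that exports citrate from mitochondria for this pathway, had 1011, 693, 816, 859 and 1134 in F1 and 1383, 1316, 1291, 1589 and 1788 in ACI (log2 difference -0.72, SE 0.18, adjusted p = 0.027). The call for Slc25a1 was lost without F1 2, F1 3, ACI 2, ACI 4 or ACI 5 (adjusted p 0.052 to 0.063). The 6 members that did not pass the test included Acly, the ATP citrate lyase, at -0.16, Scd2 at -0.65, the acyltransferase Gpam at -0.63 and Srebf1, the transcription factor that drives these genes, at 0.01. Without the 4 arrays 4 members fell and the median was -0.51, after quantile normalization 5 fell and it was -0.68, and without ACI 2 and ACI 5 alone none passed, with a median of -0.51. Leaving out each array in turn gave 4 to 6 members lower and none higher. The summed signal of the 11 genes ran from 10464 to 16443 in F1 and from 17920 to 25870 in ACI, without overlap.

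Markers of fat cells gave mixed values beside this. Of 17 white adipocyte markers tested, 1 rose and 2 fell, the median log2 difference was -0.26 (0.05 where each array was centred on its median), and the summed signal ran from 26761 to 31176 in F1 and from 23543 to 28229 in ACI. The genes that fell were Pde3b, a phosphodiesterase through which insulin restrains lipolysis, with 64.3, 38.3, 44.1, 43.5 and 74.1 in F1 and 95.3, 144, 186, 116 and 127 in ACI (log2 difference -1.35, adjusted p = 0.014), and Acsl1, which activates fatty acids with coenzyme A, with 1219, 1245, 859, 1157 and 1848 in F1 and 2385, 2122, 2829, 2614 and 2494 in ACI (log2 difference -1.01, adjusted p = 0.0092). The gene that rose was Cfd, the adipocyte-secreted complement factor D, with 9385, 9837, 10309.8, 9006 and 7274 in F1 and 4615, 5108, 5084, 3715 and 4019.6 in ACI (log2 difference 1.02, adjusted p = 0.0029). Its difference was 0.49 after quantile normalization (adjusted p = 0.062). Lpl, Plin1, Lep and Fabp4, which define fat cells, lay between -0.36 and 0.12 and did not pass the test, although the groups did not overlap for Plin1. Other markers that did not pass lay further out. The insulin-regulated glucose transporter Slc2a4 was at -1.63 without overlap (adjusted p = 0.074), and the fatty acid receptor Cd36 was at -0.64 (adjusted p = 0.32). Pparg and Cebpa, transcription factors of fat cell formation, were at -0.50 (adjusted p = 0.29) and 1.07 (adjusted p = 0.10). The part of fat cell number in the lower synthesis genes was not tested.

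Most sterol synthesis genes were on the lower side, with calls near the threshold. Of 12 tested, 4 fell and 1 rose, with a median log2 difference of -0.46. Sqle, squalene epoxidase, had 134, 178, 175, 134 and 125 in F1 and 308, 198, 271, 235 and 309 in ACI, and the groups did not overlap (log2 difference -0.82, SE 0.20, adjusted p = 0.024). Insig1, which holds the sterol sensor in the endoplasmic reticulum, had 525, 1054, 734, 503 and 865 in F1 and 1346, 866, 1912, 1692 and 1694 in ACI, where F1 2 exceeded ACI 2 (log2 difference -1.04, SE 0.26, adjusted p = 0.031). Cyp51, lanosterol demethylase, and Dhcr7, which completes cholesterol, had log2 differences of -1.38 (adjusted p = 0.043) and -0.97 (adjusted p = 0.043), with F1 5 inside or above the ACI range for both. The member that rose was Scarb1, the receptor that takes up cholesterol from HDL and not an enzyme of synthesis, with 1497, 1667, 1624, 1250.2 and 1193 in F1 and 775, 758, 758, 650.5 and 576 in ACI (log2 difference 1.04, SE 0.17, adjusted p = 0.0038). The call for Sqle was lost without F1 1, ACI 1 or ACI 5 (adjusted p 0.053 to 0.056). The call for Insig1 held without F1 2, F1 5 or ACI 2 but not without any other single array (adjusted p 0.054 to 0.066). Those for Cyp51 and Dhcr7 held without F1 5 and were lost without any other single array, at adjusted p of up to 0.089 and 0.096, whereas that for Scarb1 held without any single array. The other 2 tested probe sets of Scarb1 were at 0.75, which was called, and at -0.63, which was not. Those of Cyp51 were at -1.24, which was called, and at -0.50, which was not. Insig1 had another at -1.31, which was called, and Dhcr7 another at -0.40, which was not. Without the 4 arrays 3 fell and 1 rose, and after quantile normalization 1 fell and 1 rose. Without ACI 2 and ACI 5 alone none fell and 1 rose.

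Promoters of the lipid genes were searched for the letters that SREBP and its partner NF-Y recognise, because these factors are known to drive both pathways. Of 10 named lipid genes, 7 were in the RefSeq promoter table for GRCr8, and Fasn, Acaca and Sqle were not. The 250 bases before the start were searched on either strand. CCAAT was found in 3 of the 7, and the E-box (CACGTG) in Insig1 alone. The sterol element core (TCACCCCAC) was found in none of the 7. Me1, Scd, Cyp51 and Dhcr7 held no match. CCAAT was present in 34.0% of 33469 rat promoters of this length, CACGTG in 5.59% and TCACCCCAC in 0.409%, so that a CCAAT match is common. The capitals mark the matches, which lie at -151 in Slc25a1 (chr11:96559804-96560053, plus strand), at -111 and -64 in Pnpla3 (chr7:117173278-117173527, plus strand) and at -193 for CCAAT and -79 for CACGTG in Insig1 (chr4:8057770-8058019, minus strand). CCAAT stands in its reverse complement, ATTGG, in all 3.
Slc25a1: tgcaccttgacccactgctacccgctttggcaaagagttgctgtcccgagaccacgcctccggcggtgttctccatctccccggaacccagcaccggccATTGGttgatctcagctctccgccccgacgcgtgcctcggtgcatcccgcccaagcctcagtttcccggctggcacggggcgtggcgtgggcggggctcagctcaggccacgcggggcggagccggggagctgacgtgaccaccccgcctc
Pnpla3: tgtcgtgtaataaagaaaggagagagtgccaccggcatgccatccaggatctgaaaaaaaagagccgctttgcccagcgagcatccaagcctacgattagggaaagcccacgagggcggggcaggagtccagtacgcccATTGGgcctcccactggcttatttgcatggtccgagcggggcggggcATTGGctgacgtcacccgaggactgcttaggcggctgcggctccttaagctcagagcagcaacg
Insig1: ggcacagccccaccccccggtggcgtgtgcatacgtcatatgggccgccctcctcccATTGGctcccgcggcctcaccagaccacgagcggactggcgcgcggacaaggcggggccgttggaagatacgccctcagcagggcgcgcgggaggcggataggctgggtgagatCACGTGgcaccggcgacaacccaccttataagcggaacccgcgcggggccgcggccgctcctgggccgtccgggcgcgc
These letters describe the reference sequence only.

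**Figure D2:**
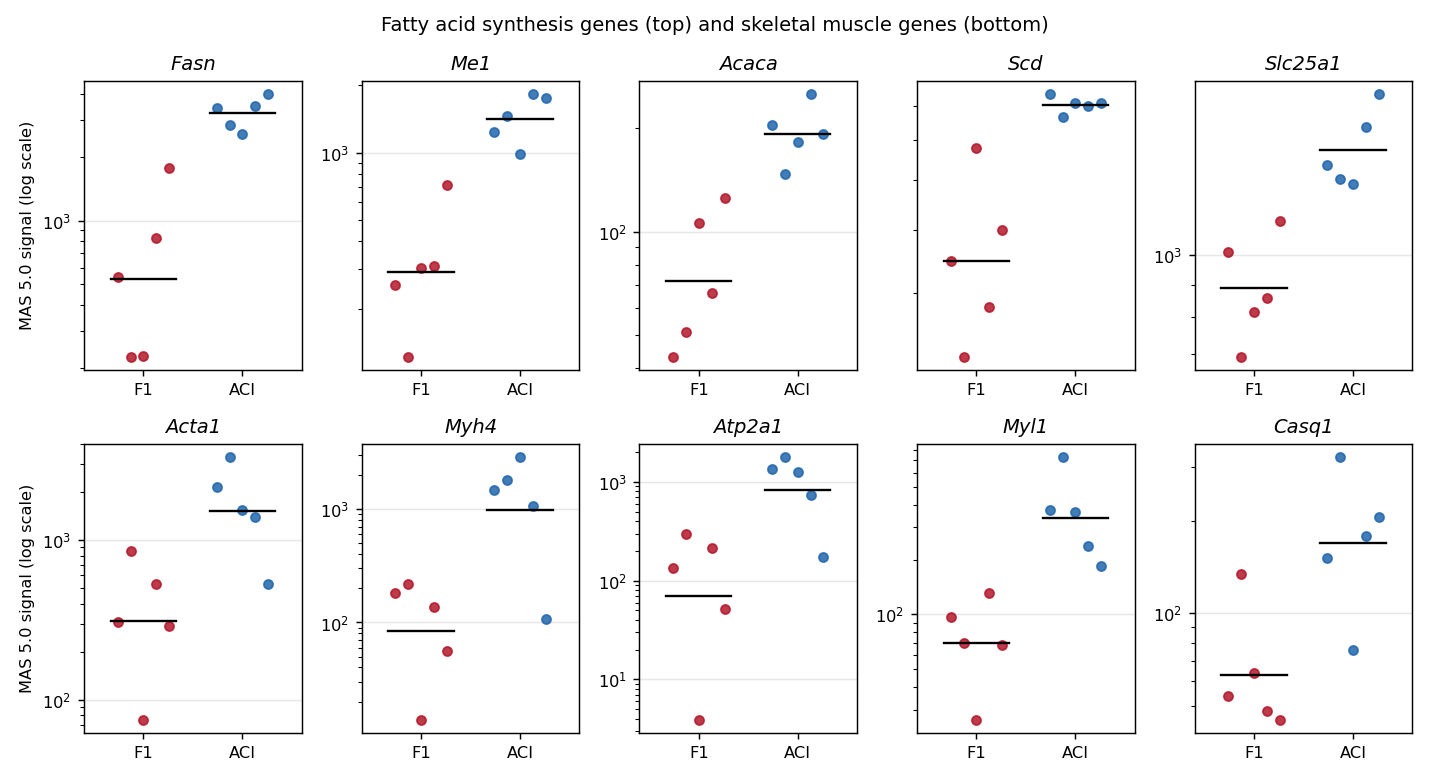
Signals of the called fatty acid synthesis genes (top row) and the called skeletal muscle genes (bottom row) on each array, on log axes. Each point is an array, and the bar is the geometric mean of the 5 arrays. For the 5 genes of the top row the F1 points lie below the ACI points, while in the bottom row ACI 5 (or, for Casq1, ACI 3) lies among or near the F1 points for each gene but Myl1.

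Skeletal muscle genes were mostly on the lower side in F1, and their signals were uneven across the ACI arrays. Of 12 muscle markers tested, 5 fell, none rose, and the median log2 difference was -1.76, the lowest of the lists examined. Myl1, a fast myosin light chain, had 97.2, 69.6, 26.4, 132 and 67.6 in F1 and 374, 732, 365, 236 and 184 in ACI, with no overlap (log2 difference -2.28, SE 0.43, adjusted p = 0.0091). Myh4, a fast myosin heavy chain, had 181, 220.2, 13.8, 136 and 55.9 in F1 and 1488, 1819, 2907, 1074 and 106 in ACI, where ACI 5 was far below the other ACI arrays and within the F1 range (log2 difference -3.46, SE 0.85, adjusted p = 0.027). Atp2a1, the calcium pump of fast muscle, had 136, 297, 3.9, 216 and 51.6 in F1 and 1356, 1792, 1270.3, 734 and 172 in ACI, with the same low ACI 5 and a very low F1 3 (log2 difference -3.11, SE 0.76, adjusted p = 0.027). Acta1, skeletal alpha actin, had 306, 858, 75.0, 531 and 289 in F1 and 2160.2, 3314, 1543, 1403 and 528 in ACI (log2 difference -2.28, SE 0.59, adjusted p = 0.034). Casq1, which stores calcium in the sarcoplasmic reticulum, had a log2 difference of -1.42 (SE 0.39, adjusted p = 0.04).

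The summed signal of the 12 muscle genes was 7282, 8038, 6564, 7584 and 6860.1 in F1, against 13902, 16362, 13923, 11850.3 and 6344 in ACI. All ACI arrays but ACI 5 were above the F1 arrays in this sum, and ACI 5 was below all of them. In the mean log2 signal, where each member counts equally, ACI 5 was at 8.03, within the F1 range of 6.12 to 8.46. The other ACI arrays were at 9.16 to 10.02. On F1 3, 5 of the 12 genes were at or below the floor, and on the other 9 arrays none was. Outside that list, Pygm, muscle glycogen phosphorylase, was at 54.8, 90.3, 7.4, 108 and 68.6 in F1 and 317, 452, 265, 182 and 138 in ACI (log2 difference -2.09, SE 0.46, adjusted p = 0.016) and Cox6a2, the muscle form of a cytochrome oxidase subunit, at 111, 67.8, 60.6, 138 and 121 in F1 and 267, 461, 299, 198 and 188 in ACI (log2 difference -1.50, SE 0.30, adjusted p = 0.012). Of the muscle calls, that for Myl1 held in all 10 fits that left out 1 array. Those for Myh4, Atp2a1 and Acta1 were each lost without ACI 1, ACI 2, ACI 3 or ACI 4 (highest adjusted p 0.073, 0.073 and 0.087), that for Myh4 also without F1 3 and that for Acta1 also without F1 1. The call for Casq1 held without F1 2 or ACI 3 but not without any other single array (adjusted p 0.059 to 0.1). The call for Pygm was lost without ACI 2 (adjusted p = 0.05). Between 1 and 5 muscle markers fell in these fits, with 1 when ACI 1, ACI 2 or ACI 4 was left out. Without the 4 arrays 6 of the 12 muscle markers fell, and without ACI 2 and ACI 5 alone 2 did. How much muscle was dissected with each gland is not recorded in the labels, and its part in these differences was not tested. Cop and F344 were also above F1 for Myl1, at 629 and 841.

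**Figure D3:**
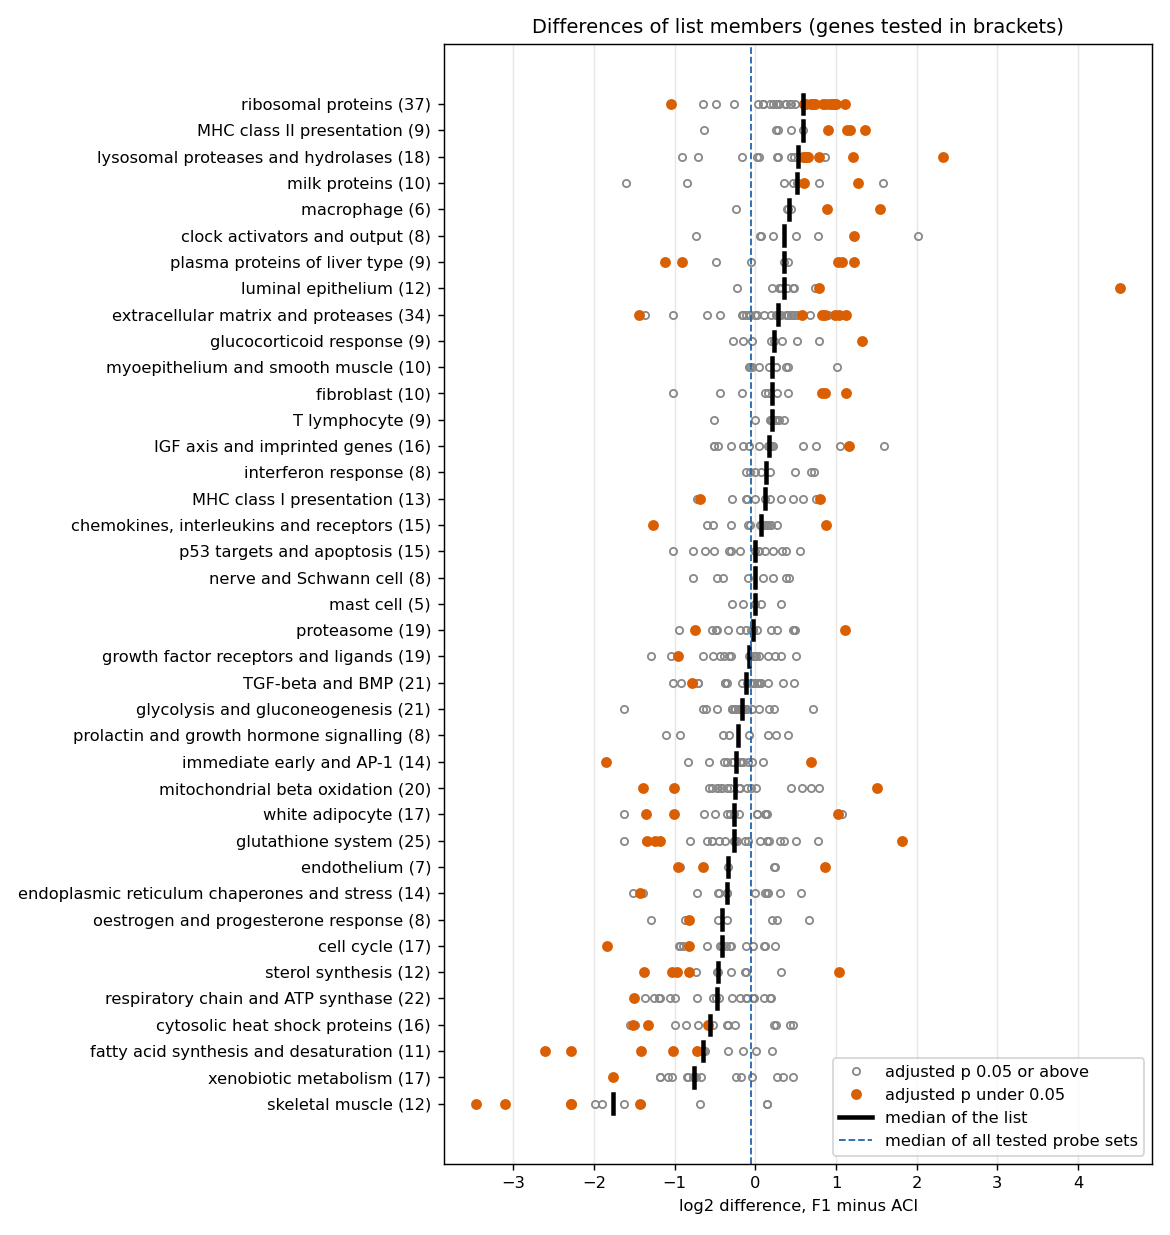
Log2 difference (F1 minus ACI) of every tested member of each list with at least 5 tested genes, with 1 probe set standing for a gene. Filled orange points passed the test and open points did not, black bars are list medians and the dashed line is the median of all tested probe sets at -0.05. Skeletal muscle has the lowest median, at -1.76, and ribosomal proteins and MHC class II presentation have the highest, at 0.59.

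Other genes with large differences downward had varied functions. Hs6st1, which sulfates heparan sulfate chains, had 332, 285, 221, 328 and 253 in F1 and 912, 901, 585, 520.5 and 1072 in ACI (log2 difference -1.46, SE 0.23, adjusted p = 0.0037), and the hybrid lay between its parents, at 283 in F1 against 8.78 in Cop and 455 in F344. Slc3a1, a subunit of the cystine and dibasic amino acid transporter, had 69.7, 13.3, 23.6, 84.1 and 72.5 in F1 and 252, 252, 163, 132 and 274 in ACI, with F1 2 and F1 3 lowest (log2 difference -2.20, SE 0.44, adjusted p = 0.011). Smim7, a small membrane protein, had 47.8, 60.1, 47.9, 63.9 and 57.5 in F1 and 289.8, 266, 154, 140.2 and 274 in ACI (log2 difference -1.96, SE 0.26, adjusted p = 0.0017). For Smim7 both parents were close to F1, at 44.1 in Cop and 69.2 in F344, and ACI stood apart from them. Nae1, a subunit of the enzyme that activates NEDD8, had 133, 66.9, 37.0, 62.3 and 86.0 in F1 and 234, 292, 234, 262 and 258 in ACI (log2 difference -1.85, SE 0.29, adjusted p = 0.0038), while another of its probe sets was at -0.12 and was not called. Ssb, the La protein that binds the ends of RNA polymerase III transcripts, had 67.5, 36.0, 49.4, 80.1 and 111 in F1 and 186, 304, 210.1, 232 and 317 in ACI (log2 difference -1.94, SE 0.30, adjusted p = 0.0037). Its other 2 probe sets were at -1.74, which was called, and at 0.36, which was not.

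A pair of genes of the pyruvate dehydrogenase step, which feeds carbon into mitochondrial oxidation and fat synthesis, was lower. Pdhb, the beta subunit of its first enzyme, had 40, 58.6, 65.1, 71.1 and 59.6 in F1 and 150.2, 221, 192, 239 and 357 in ACI (log2 difference -1.94, SE 0.26, adjusted p = 0.002). Pdp2, the phosphatase that switches the complex on, had 49.1, 17.7, 15.2, 41.7 and 35.8 in F1 and 108, 131, 130.5, 116 and 168 in ACI (log2 difference -2.10, SE 0.35, adjusted p = 0.0047). Neither pair of groups overlapped. Of 22 subunits of the respiratory chain and ATP synthase, Cox6a2 alone was called. On the lower side were 19 of the 22 (median -0.47), against 2431 of all 4494 tested probe sets. The summed signal of the 22 was 20346 and 22548 on F1 2 and F1 3 and ran from 32054 to 34370 on the other F1 arrays, against 29896 to 38230 in ACI. Without F1 2 and F1 3 the median was -0.25. Without ACI 2 and ACI 5 alone no subunit was called, and without all 4 arrays 3 were called lower. Of 20 genes of mitochondrial beta oxidation, 2 fell and 1 rose. Acaa2, the mitochondrial thiolase, was the gene called higher, with 1962, 2997, 3437, 1471 and 1877 in F1 and 752, 655, 708, 1086 and 779.6 in ACI (log2 difference 1.51, SE 0.24, adjusted p = 0.0038). Its mean was 2349 in F1, 2218 in Cop, 1849 in F344, 1991 in BUF/N and 1568 in WF, against 796 in ACI, so that ACI stood apart. Etfdh, which passes electrons from fatty acid oxidation to ubiquinone, fell (log2 difference -1.40, adjusted p = 0.042) and was lowest on F1 2 and F1 3, at 49.6 and 53.1. The call for Etfdh held without F1 1, F1 4 or F1 5 but not without any other single array (adjusted p 0.063 to 0.099). None of 21 genes of glycolysis and gluconeogenesis was called by limma, although 4 had an unadjusted p below 0.05. The hexokinase Hk2 was at -0.28 (adjusted p = 0.35).

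Antioxidant (17 of 25) and heat shock genes (12 of 16) were mostly on the lower side, against 2431 of all 4494 tested probe sets. For the antioxidant and xenobiotic lists the size or sign of the median turned on F1 2 and F1 3. Cat, catalase, had 290.5, 215, 270.5, 273 and 590.1 in F1 and 624, 1092, 753, 727 and 758 in ACI (log2 difference -1.34, SE 0.26, adjusted p = 0.0093). Nqo1, a quinone reductase, had 68.1, 36.9, 38.1, 83.6 and 195 in F1 and 209, 241, 229, 222 and 273 in ACI (log2 difference -1.76, SE 0.39, adjusted p = 0.017). Of 25 genes of the glutathione and antioxidant list, 3 fell (Cat, the glutathione transferase Gsta1 and the mitochondrial superoxide dismutase Sod2) and Gstt2 rose, with a median of -0.27 (0.05 with each array centred on its median). Without F1 2 and F1 3 that median was 0.09, and without ACI 2 and ACI 5 alone none fell and 1 rose (median -0.40). Of 17 genes of xenobiotic metabolism, Nqo1 alone was called and the median was -0.76, which was -0.13 without F1 2 and F1 3 and -0.19 without the 4 arrays. The summed signal of the xenobiotic list was 4672 and 5587 on F1 2 and F1 3 and ran from 8455 to 9861 on the other F1 arrays, against 8913 to 10934 in ACI. Of 16 heat shock genes, 3 fell and none rose (median -0.56), and without ACI 2 and ACI 5 alone 1 fell. They were Hspa9, the mitochondrial HSP70, with 88.8, 194, 227, 125 and 148 in F1 and 372, 333, 378, 406 and 373 in ACI (log2 difference -1.32, SE 0.24, adjusted p = 0.0064), Hspe1, the mitochondrial co-chaperonin HSP10 (-0.59, adjusted p = 0.031), and Cryab, alpha B crystallin, which is abundant in muscle (-1.51, adjusted p = 0.012). The call for Gsta1 was lost without ACI 1, ACI 4 or ACI 5 (adjusted p 0.05 to 0.056), that for Sod2 held without F1 5 or ACI 2 but not without any other single array (adjusted p 0.052 to 0.077), and that for Hspe1 held without F1 4, F1 5 or ACI 3 but not without any other single array (adjusted p 0.055 to 0.074). The carbonyl reductase Cbr1 (0.26, adjusted p = 0.68) and the soluble epoxide hydrolase Ephx2 (-0.77, adjusted p = 0.3) did not pass the test. Ephx2 had 247, 42.4, 60.5, 197 and 280.3 in F1, where F1 2 and F1 3 were the low arrays, and 211, 239, 282, 180.1 and 196 in ACI.

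Ribosomal protein genes were mostly on the higher side in F1 on the deposited scale. Of 37 tested, 15 rose and 1 fell, with a median log2 difference of 0.59, and the summed signal ran from 177016 to 254046 in F1 and from 131879 to 158254 in ACI. Rpl23 had 11793, 12132, 9311, 10348 and 8317 in F1 and 6835, 5086, 5472, 4913 and 5263 in ACI (log2 difference 0.91, SE 0.15, adjusted p = 0.0053). Rpsa, the laminin receptor protein of the small subunit, had 7141, 10779.8, 9442, 6009.9 and 5099 in F1 and 4246, 2814, 3624, 3673 and 3006 in ACI (log2 difference 1.11, SE 0.21, adjusted p = 0.0092). Among the 142 probe sets with a mean signal of at least 4000 the median was 0.50, close to that of the ribosomal list. After quantile normalization 2 rose and 1 fell and the list's median was 0.13, and without the 4 arrays 7 rose and 1 fell. Leaving out each array in turn gave 8 (without ACI 2) to 18 (without F1 5) higher and 1 lower, with 9 without F1 1, ACI 4 or ACI 5, and none rose without ACI 2 and ACI 5 together. Rpsa remained called after quantile normalization, at 0.69 (adjusted p = 0.037), and Rpl23 did not, at 0.29 (adjusted p = 0.11). Both were called without any single array. The member that fell was Rps24, with 419.9, 293, 286, 486 and 421 in F1 and 655, 645, 809, 661 and 1196 in ACI (log2 difference -1.05, SE 0.23, adjusted p = 0.015), and it was at -1.03 after quantile normalization (adjusted p = 0.029).

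Connective tissue genes included both bright and moderate ones. Of 34 genes of the extracellular matrix and its proteases, 6 rose and 1 fell, with a median of 0.28. After quantile normalization 3 rose, none fell and the median was 0.10, and without ACI 2 and ACI 5 alone 1 rose and none fell (median 0.33). Mmp2, a gelatinase, had 1113, 1709, 1372, 1026 and 1042 in F1 and 677, 639, 543, 601 and 542 in ACI (log2 difference 1.04, SE 0.18, adjusted p = 0.0057), and its difference of 1.01 after quantile normalization also passed the test (adjusted p = 0.007). Eln, elastin, had 1949, 1818, 2295, 1961 and 1464 in F1 and 797, 809.8, 1292, 771 and 1169.8 in ACI (log2 difference 0.99, SE 0.20, adjusted p = 0.01), and 0.92 after quantile normalization (adjusted p = 0.022). Both therefore held under that scaling. The very bright Col1a1, the main chain of type I collagen, had 15934, 14462, 12358, 14972 and 10879 in F1 and 9252, 7191, 7346, 7024 and 6799.9 in ACI (log2 difference 0.86, SE 0.15, adjusted p = 0.0059), and this was 0.04 after quantile normalization (adjusted p = 0.84). Its other 3 probe sets were at -0.06, -0.26 and -0.56 and were not called. Dcn, the proteoglycan decorin, had a log2 difference of 1.12 (adjusted p = 0.0064) and 0.40 after quantile normalization (adjusted p = 0.076). Its other 3 tested probe sets were at -0.11, -0.51 and 0.27 and were not called. Col1a2 was at 0.83 (adjusted p = 0.012) and at 0.26 after quantile normalization (adjusted p = 0.22). The member that fell was Vcan, the proteoglycan versican, with 139, 25.2, 91.7, 171 and 106 in F1 and 281, 253, 214, 278 and 204 in ACI (log2 difference -1.44, SE 0.42, adjusted p = 0.047), and its call held without F1 2, F1 4 or F1 5 but not without any other single array (adjusted p 0.055 to 0.1).

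Lysosomal genes were mostly on the higher side, with 7 of 18 called higher, none lower, and a median of 0.53. The 3 members on the lower side did not pass the test. They were Scarb2 at -0.91 and Lamp2 at -0.71 (adjusted p = 0.067 for both) and Acp5 at -0.17 (adjusted p = 0.71). Lipa, the acid lipase that frees cholesterol and fatty acids from lipoproteins, had 675, 1201, 1249.6, 703 and 1406 in F1 and 547, 335, 548, 500.5 and 305 in ACI (log2 difference 1.21, SE 0.26, adjusted p = 0.016). Gaa, the acid glucosidase that breaks down glycogen, had 919.6, 926, 983, 1015 and 805 in F1 and 664, 469, 631, 518 and 444 in ACI (log2 difference 0.78, SE 0.17, adjusted p = 0.015). The other 2 tested probe sets of Lipa were at 0.92 and -0.19 and were not called. Lipa and Gaa were the 2 members called after quantile normalization, at 1.25 and 0.79. Gm2a, the ganglioside activator, had the largest difference of the list and the widest spread, with 1350.5, 252, 339, 1465 and 1219 in F1, where F1 2 and F1 3 were low, and 153, 142, 340.1, 288 and 31.2 in ACI (log2 difference 2.32, SE 0.66, adjusted p = 0.043). Its mean of 925 in F1 lay between those of its parents, 364 in Cop and 1411 in F344. The cathepsins Ctsb and Ctsl were called higher, at 0.64 (adjusted p = 0.02) and 0.59 (adjusted p = 0.034), while Ctsd, Ctsh, Ctsk and Ctss lay between 0.02 and 0.45 and did not pass. The call for Gm2a held without F1 2, F1 3 or ACI 3 but not without any other single array (adjusted p 0.055 to 0.096), that for Ctsb was lost without ACI 2 or without ACI 4 (adjusted p 0.052 to 0.055), and that for Ctsl held without F1 3, F1 5 or ACI 5 but not without any other single array (adjusted p 0.054 to 0.076). The second probe set of Ctsl was at -0.21 and was not called. Leaving out each array in turn gave 2 (without ACI 2) to 6 members higher, with 3 without ACI 4 and 4 without F1 1, F1 4 or ACI 1. Without the 4 arrays 4 of the 18 rose, and without ACI 2 and ACI 5 alone none did.

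Genes of antigen presentation by MHC class II, which displays peptides on macrophages, dendritic cells and B cells, were called higher for 4 of 9 members and lower for none (median 0.59). RT1-DOa went the other way and did not pass, at -0.64 (adjusted p = 0.083), with every F1 array below every ACI array. RT1-DMb and RT1-DMa encode the chains of the rat peptide-loading molecule. RT1-DMb had 698, 1430.5, 888, 865 and 508 in F1 and 346, 262, 398, 224 and 438 in ACI (log2 difference 1.36, SE 0.28, adjusted p = 0.012). RT1-DMa had 405, 812, 566, 429.8 and 489 in F1 and 302, 271, 290.5, 304 and 236 in ACI (log2 difference 0.90, SE 0.20, adjusted p = 0.019). F1 2 was the highest array for both. The class II chains RT1-Ba and RT1-Db1 were called higher, at 1.14 (adjusted p = 0.037) and 1.17 (adjusted p = 0.035), whereas RT1-Bb was at 0.25 (adjusted p = 0.49). The other 2 tested probe sets of RT1-Ba were at -0.40 and 0.77 and were not called. The part of strain differences in sequence under the probes was not tested, for these genes or for the others named in the text. The call for RT1-DMa was lost without ACI 2 (adjusted p = 0.051), that for RT1-Ba held without F1 2, F1 4, F1 5 or ACI 5 but not without any other single array (adjusted p 0.061 to 0.079), and that for RT1-Db1 held without F1 3, F1 5, ACI 1 or ACI 3 but not without any other single array (adjusted p 0.059 to 0.074). Leaving out ACI 2 left 1 member called and leaving out F1 1 or ACI 4 left 2. After quantile normalization 3 of the 9 rose (median 0.38), without the 4 arrays 2 did (median 0.31), and without ACI 2 and ACI 5 alone none did (median 0.57).

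Macrophage markers, read beside the class II and lysosomal genes, rose for 2 of 6 members, with a summed signal of 6292 to 7637 in F1 and 3618 to 6406 in ACI, which overlapped. Cd14, the co-receptor for bacterial lipopolysaccharide, had 1700.1, 2581, 2657, 1615 and 2869 in F1 and 662, 708, 1090.2, 782 and 635 in ACI (log2 difference 1.55, SE 0.22, adjusted p = 0.0027), and its second probe set was called higher as well, at 0.92. Clec10a, a lectin of macrophages, had a log2 difference of 0.89 (adjusted p = 0.04), while the complement genes C1qb and C1qc, at 0.41 and 0.39, and Lyz2, at 0.44, did not pass. Aif1 was on the lower side, at -0.23, and did not pass either (adjusted p = 0.68). The call for Clec10a held without F1 5 or ACI 5 but not without any other single array (adjusted p 0.052 to 0.091). In the opposite direction Ccl2, the chemokine that draws monocytes, had 133, 169, 133, 186 and 124 in F1 and 339, 336, 368, 294 and 443 in ACI (log2 difference -1.26, SE 0.18, adjusted p = 0.0029), and its second probe set was at -1.19 and was also called. None of 9 T lymphocyte markers, 3 B lymphocyte markers and 5 mast cell markers was called by limma in either direction, and 0 had an unadjusted p below 0.05. The part of macrophage number in the class II and lysosomal differences was not tested.

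**Figure D4:**
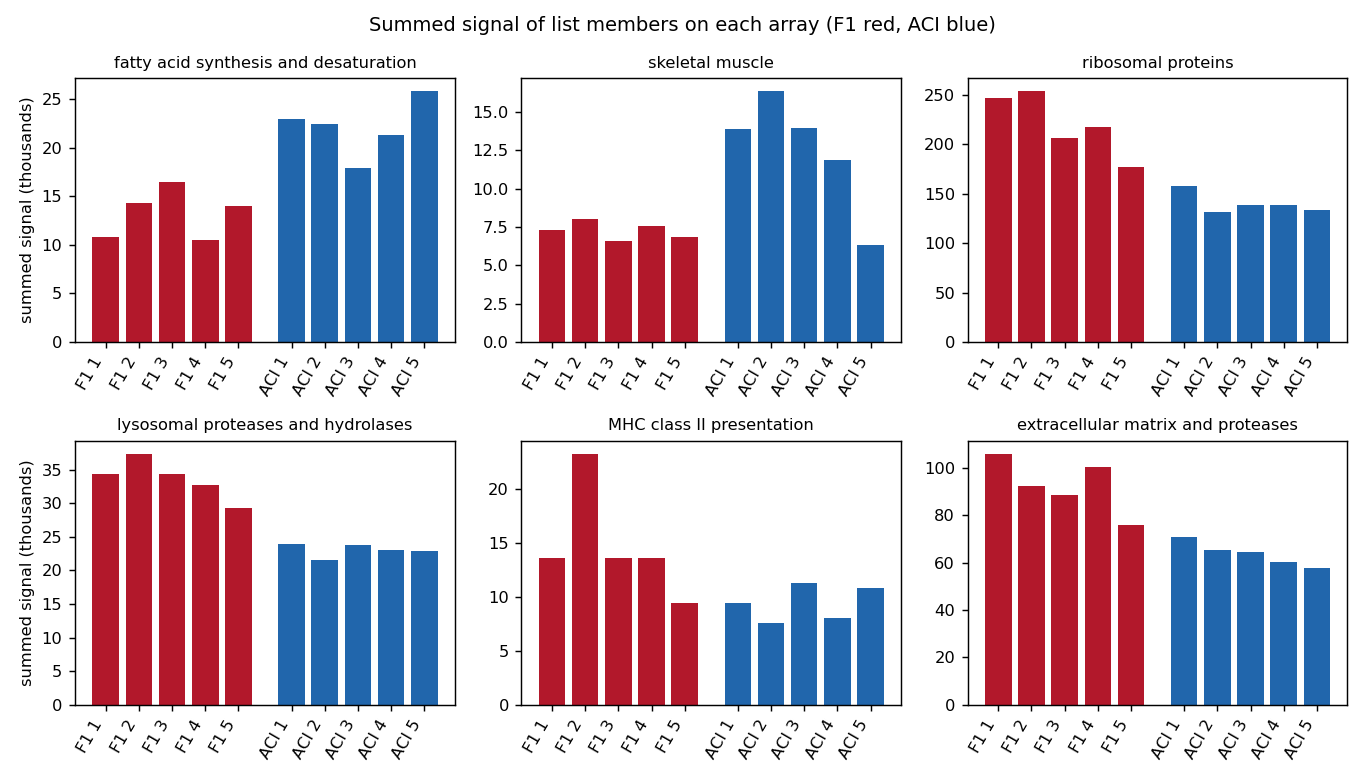
Summed deposited signal, in units of 1000, of the tested members of 6 gene lists on each array, with F1 in red and ACI in blue and bars starting at 0. The sums do not overlap between F1 and ACI for fatty acid synthesis, ribosomal, lysosomal and matrix genes, and F1 2 stands highest for MHC class II. For muscle the sum on ACI 5 falls below those on the F1 arrays, although its mean log2 signal lies within their range.

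Milk protein genes were variable within both groups. Lalba, the alpha-lactalbumin needed for lactose synthesis, was the clearest, with 6612, 4493, 5146, 4722 and 5125 in F1 and 1922, 2847, 2526, 1344 and 2369.9 in ACI (log2 difference 1.28, SE 0.21, adjusted p = 0.004), and 1.05 after quantile normalization (adjusted p = 0.017). Csn1s1, alpha-S1 casein, had 9747, 10541, 11768, 8463 and 7452 in F1 and 6736, 6988, 5023, 5695 and 6963 in ACI (log2 difference 0.60, SE 0.16, adjusted p = 0.038), but its difference was -0.10 after quantile normalization (adjusted p = 0.7), so its direction was not kept. On the deposited scale that call held without F1 4 or F1 5 but not without any other single array (adjusted p 0.057 to 0.087). The other caseins and whey proteins did not pass the test. Csn2, beta casein, had 671, 2241, 6942, 1143 and 4553 in F1 and 4095, 2485, 174, 2831 and 708 in ACI, a range of over an order of magnitude within each group (0.79, adjusted p = 0.56). Wap, whey acidic protein, had 36.4, 149, 631, 83.9 and 857 in F1 and 1081, 1048, 252, 419 and 531 in ACI (-1.60, adjusted p = 0.18). Csn3, kappa casein, was at 0.35 (adjusted p = 0.55). Both parents were lower than F1 and ACI in the mean of Csn2, at 131 in Cop and 176 in F344 against 3109.9 in F1 and 2059 in ACI.

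Of 12 luminal epithelial markers, 11 were on the higher side, against 2063 of all 4494 tested probe sets. The median was 0.35, and 2 were called higher (Lcn2 and Spint2), against 4.92% of all tested probe sets. The summed signal of the 12 ran from 11019 to 14814 in F1 and from 6920.1 to 9481 in ACI. Spint2, an inhibitor of epithelial serine proteases, had 2252, 3999.7, 3995, 1941 and 2485 in F1 and 2044, 1314, 1568, 1766 and 1522 in ACI (log2 difference 0.79, SE 0.23, adjusted p = 0.046), with the overlap at F1 4, and its adjusted p was 0.25 without the 4 arrays. The call held without F1 4 or F1 5 but not without any other single array (adjusted p 0.057 to 0.12). Krt18, Krt19 and Cldn3, a pair of luminal keratins and a tight junction protein, had log2 differences of 0.39, 0.48 and 0.74 and did not pass the test (adjusted p = 0.15, 0.11 and 0.11). None of 10 myoepithelial and smooth muscle markers was called by limma, and 2 had an unadjusted p below 0.05. The receptors for progesterone and prolactin, Pgr at -0.47 (adjusted p = 0.53) and Prlr at -0.33 (adjusted p = 0.47), did not pass, and the probe sets of the oestrogen receptor Esr1 were too dim to be tested. Ccnd1, cyclin D1, which drives entry into the cell cycle and is induced by both hormones, fell, with 726, 471, 834, 736 and 664 in F1 and 1474, 1025, 1153, 1784 and 756 in ACI (log2 difference -0.82, SE 0.24, adjusted p = 0.049). Top2a, the topoisomerase of dividing cells, had 178, 22.6, 111, 170.2 and 235 in F1 and 570.1, 329, 327, 611 and 273 in ACI (log2 difference -1.83, SE 0.53, adjusted p = 0.046). These were the 2 of 17 cell cycle genes that were called, and the list's median was -0.41. With the 4 arrays left out 5 fell (median -0.63) and without ACI 2 and ACI 5 alone 1 did (median -0.68), whereas none was called after quantile normalization (median -0.17) or with each array centred on its median (median -0.10). The other 3 tested probe sets of Ccnd1 were at -0.51, 0.25 and -0.42 and were not called. The other tested probe set of Top2a was at -0.23 and was not called either. The call for Ccnd1 held without ACI 5 but not without any other single array (adjusted p 0.059 to 0.11), and that for Top2a held without F1 2 or F1 5 but not without any other single array (adjusted p 0.051 to 0.097).

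The clock output gene Dbp, a transcription factor whose RNA swings over the day, was higher in F1 on both of its probe sets. It had 140.1, 325, 313, 137 and 156 in F1 and 78.2, 20.9, 34.3, 55.7 and 12.4 in ACI on the dimmer one (log2 difference 2.48, SE 0.44, adjusted p = 0.0059). On the brighter one it had 421, 893, 793, 407 and 639 in F1 and 359, 164, 213, 253 and 22.7 in ACI, without overlap but short of the threshold (log2 difference 2.02, SE 0.60, adjusted p = 0.051). F1 2 and F1 3 were the highest and ACI 2 and ACI 5 the lowest arrays on the dimmer probe set, and without these 4 arrays the difference was 1.44 (adjusted p = 0.032). The mean on the dimmer probe set was 214 in F1, 258 in Cop, 327 in F344, 289 in BUF/N and 285 in WF, against 40.3 in ACI. Both parents were thus above F1 as well as ACI. Bhlhe40, a repressor in the clock loop, had 120.4, 254, 157, 109 and 172 in F1 and 67.5, 78.7, 50.3, 51.3 and 96.5 in ACI (log2 difference 1.22, SE 0.29, adjusted p = 0.024), and 1.23 without the 4 arrays (adjusted p = 0.031). Its call was lost without F1 2 or without ACI 4 (adjusted p 0.055 to 0.056). Of 8 clock genes tested, Bhlhe40 alone was called on the probe set with the highest signal, Nr1d1, Nr1d2 and Bhlhe41 were at 0.22, 0.78 and 0.51 (adjusted p = 0.6, 0.13 and 0.069), and Tef was at -0.73 (adjusted p = 0.093). Per2 and Bmal1 were too dim to be tested. The labels do not give the time of day at which the glands were taken. The promoter of Bhlhe40 (chr4:143174200-143174449, plus strand, GRCr8) is shown because it holds, at -220, the E-box CACGTG through which CLOCK and BMAL1 act, a sequence found in 5.59% of rat promoters of this length.
Bhlhe40: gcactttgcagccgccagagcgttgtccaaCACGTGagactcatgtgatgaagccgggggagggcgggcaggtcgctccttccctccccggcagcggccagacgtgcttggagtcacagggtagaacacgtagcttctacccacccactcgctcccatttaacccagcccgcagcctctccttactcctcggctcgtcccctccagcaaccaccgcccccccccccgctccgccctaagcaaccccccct

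Stress hormone and growth response genes gave single calls. Cebpd, a transcription factor induced by glucocorticoids, had 384, 409, 407, 515 and 652 in F1 and 158, 162, 203, 187 and 226 in ACI (log2 difference 1.32, SE 0.19, adjusted p = 0.0029). Its other 2 tested probe sets were at -0.33 and 1.76 and were not called. Cebpd was the one call among 9 glucocorticoid response genes. Egr2, an immediate early transcription factor, fell, with 386, 132, 116, 313 and 113 in F1 and 989, 602, 786, 414 and 653 in ACI (log2 difference -1.85, SE 0.37, adjusted p = 0.011), while Junb, a subunit of AP-1, rose (log2 difference 0.69, adjusted p = 0.044). The call for Junb held without F1 3 or F1 5 but not without any other single array (adjusted p 0.054 to 0.11). The other 12 of 14 immediate early genes did not pass the test. Il6st, the shared receptor subunit gp130, had 349, 555, 371, 336 and 398 in F1 and 214, 195, 267, 216 and 193 in ACI (log2 difference 0.87, SE 0.18, adjusted p = 0.014). Nnat, an imprinted gene, had 1505, 2539.5, 2039, 1484 and 2038 in F1 and 1116, 812, 867, 592 and 911 in ACI (log2 difference 1.16, SE 0.21, adjusted p = 0.0064).

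Secreted proteins better known from liver split in direction. Apoe, the apolipoprotein of tissue macrophages and fat, had 13847, 15929.9, 12151, 13005 and 8286 in F1 and 6812, 5915, 5263, 5654 and 5864 in ACI (log2 difference 1.07, SE 0.17, adjusted p = 0.0041), and 0.37 after quantile normalization (adjusted p = 0.066). Cp, the copper carrier ceruloplasmin, had 633, 1474, 429.9, 530 and 1108 in F1 and 266, 366, 301, 219 and 523 in ACI (log2 difference 1.23, SE 0.34, adjusted p = 0.04), with F1 3 inside the ACI range. Rbp4, which carries retinol and is made by fat cells, fell, with 969, 1271, 1037, 1256 and 2023 in F1 and 2487, 3015, 2281, 2506 and 3698 in ACI (log2 difference -1.12, SE 0.22, adjusted p = 0.0092), and its other 2 tested probe sets, at 0.04 and -0.76, were not called. Haptoglobin, Hp, also fell, at -0.91 (adjusted p = 0.039). The call for Cp held without F1 3, F1 4 or ACI 5 but not without any other single array (adjusted p 0.061 to 0.089), and that for Hp held without F1 2 or F1 5 but not without any other single array (adjusted p 0.06 to 0.096). With Cfd these made 3 of 9 tested genes higher and 2 lower. After quantile normalization none rose and 1 fell, and without ACI 2 and ACI 5 alone 2 rose and none fell.

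The level of F1 was then set beside its parents, since the F1 arrays enter every such comparison and no test was made. Of the 221 probe sets called higher in F1, 203 (91.9%) also had an F1 mean above the means of both Cop and F344, against 72.8% of the 2063 tested probe sets with a positive difference. For 157 of the 221 (71.0%) the ACI mean was below both parents, against 43.4%. Of the 205 called lower, 188 (91.7%) had an F1 mean below both parents, against 61.6% of the 2431 tested with a negative difference, and for 108 (52.7%) the ACI mean was above both, against 55.3%. Against all 5 other groups, F1 had the highest mean for 180 of the 221 (81.4%) and the lowest for 155 of the 205 (75.6%), against 52.7% and 44.9% of all tested probe sets with a difference of that sign. ACI had the lowest mean for 136 of the 221 (61.5%) and the highest for 102 of the 205 (49.8%), against 30.4% and 36.7%. Calls of this kind hold, by their choice, probe sets on which F1 and ACI lie at opposite ends, and the shares are given as a description.

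The named genes fell into several patterns. Lcn2 was high in F1 and Cop, at 1694 and 1616, and also in BUF/N and WF, at 2742 and 2557, and low in ACI and F344. Grifin, Hs6st1 and Gm2a had F1 means between those of the parents. Neo1, Scnn1b, Gp2 and Cd14 had F1 means above both parents, and Scd, Me1, Fasn, Pnpla3 and Pdhb had F1 means below both, with Scd at 70.7 in F1 against 441 in Cop and 661 in F344 on its dimmer probe set. Smim7, Cirbp, Hbb, Acaa2 and, on its dimmer probe set, Dbp set ACI apart from F1 and both parents, with Cirbp at 111 in F1, 113 in Cop and 77.7 in F344 against 32.5 in ACI.

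**Figure D5:**
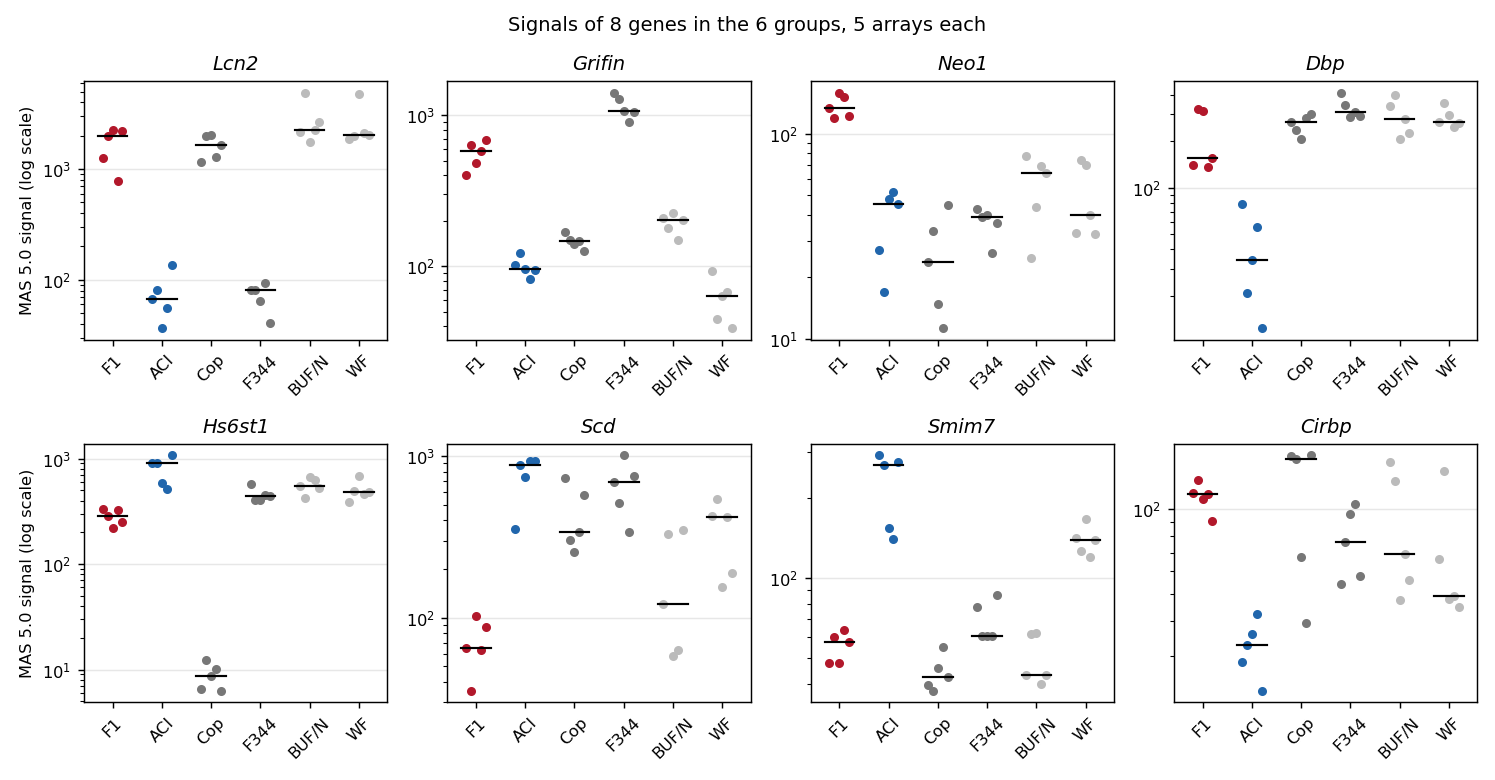
Signals of 8 genes on the 5 arrays of each of the 6 groups, on log axes, with the median of each group as a bar. F1 is red, ACI blue, the parents Cop and F344 dark grey and BUF/N and WF light grey. Lcn2 is low in ACI and F344 alone, Hs6st1 is lowest in Cop with F1 between Cop and F344, Neo1 is highest in F1, and Smim7 is highest in ACI.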

How the data were processed

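Total RNA from normal rat mammary gland was labelled as biotinylated cRNA and hybridised to 1-colour Affymetrix arrays, per the labels' protocols. The deposited values are linear signal intensities that the authors computed with Microarray Suite 5.0, per the labels, for 8799 probe sets per array, 59 of them controls. Trimmed of 2% at each end, the 30 single-sample arrays had means of 250.3 to 250.4, which marks scaling to a target, and the values show no other normalization. Sample groups came from the titles, and no 2 of the single-sample arrays held the same values. The number of arrays limits the precision, since arrays give no counts.

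Signals below the 25th percentile of the 30 single-sample arrays (18.3) were set to it and log2 transformed. Probe sets above the overall median (78.4) in at least 5 of the 10 arrays were tested with limma 3.58.1 in R 4.3.3 (variance trend, 13 degrees of freedom) on the F1 and ACI arrays alone, since an earlier reading found these the most variable groups. The script was tested on simulated data. Gene symbols came from the array's annotation table (7018 probe sets with 1 symbol, 308 with several, 1473 with none), and 6994 were matched by identifier to RefSeq GRCr8, which also gave the promoters. In gene lists the brightest probe set over the 10 arrays stood for a gene.

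Named genes were the 14 with the largest difference in each direction among called probe sets with 1 symbol and groups that did not overlap, up to 4 called members per direction of each list, and a fixed set. Slc25a1, Gm2a, Ctsl and Casq1, and list members named with a difference that did not pass the test, fell outside this rule and were named after their values were seen. The comparison, the lists and the fixed genes were chosen with earlier results of these data known. Alternatives covered the floor, the filter, the scaling, the variance model, a replicate block and arrays left out. The 2 pools were not used.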

Additional observations from a re-analysis of the deposited data

Results flagged for a closer look

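A gap between 1 array and the rest of its group that exceeded Dixon's critical value was found in 5 of the 94 sets of 5 arrays examined, which is about the 1 in 20 that chance gives. Gstt2 was at 235.4 on ACI 5, above the other ACI arrays, and Dbp was at 22.7 on ACI 5 on its brighter probe set, below the other ACI arrays. Scd was at 353.6 on ACI 1 on its dimmer probe set, below the other ACI arrays, and still above every F1 array. Alkbh7 was at 450.8 on F1 2, above the other F1 arrays, and Pnpla3 was at 24.1 on F1 1, below the other F1 arrays.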

How the results depend on the processing

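The number of called probe sets, 426 with all 10 arrays, moved by more than 1.5 times under several settings. It was 266 with no filter on dim probe sets, 271 after quantile normalization, 674 with each array centred on its median log2 signal, 1113 with array weights, 1304 with all 30 single-sample arrays in the fit, and 81 without ACI 2 and ACI 5. Leaving out each array in turn gave 171 (without ACI 2) to 659 (without F1 5), with 235 without F1 1, 232 without F1 2, 242 without F1 3, 251 without ACI 1, 274 without ACI 3, 211 without ACI 4 and 237 without ACI 5. Of the 426, 150 were called in all 10 of these fits. Centring moved the median difference of all probe sets to 0.26 and the share of calls that were higher in F1 to 86.8%, against 51.9% on the deposited scale. The replicate block and the fit on all 30 arrays leave each difference unchanged by their design, so signs could not change there. All 426 kept their sign without a pair of arrays or all 4, with centring and with array weights. After quantile normalization 424 did. Csn1s1 changed direction under that setting, at -0.10 (adjusted p = 0.70). The calls of the sterol synthesis list turned from mainly lower to 1 higher with centring, with the replicate block, and without F1 1, ACI 1, ACI 5 or ACI 2 and ACI 5, and the cause was not tested. With the replicate number as a block 154 probe sets were called. Same-numbered arrays correlated at -0.34 to 0.11 in their deviations and 1 of 10 arrays correlated best with its own number. No pairing by number was seen, although these values cannot exclude one. Dim signals limit what can be tested, and Esr1, Per2 and Bmal1 are not covered.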
